A study of Mus musculus with 20 samples.

Results

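The genes described here are 10 mouse genes that mark dendritic cells or carry the signal between the chemokine XCL1 and its receptor XCR1, namely Xcr1, Clec9a, Batf3, Irf8, Flt3, Zbtb46, Itgax, Cd209a, Ccr7 and Xcl1. They were chosen by name, for their known roles and with earlier results of these data known, out of 55335 genes listed for each tumour. A test was fitted to 13982 genes that reached at least 1 FPKM (a level scaled to the length of the transcript and to the size of the library) in at least 5 tumours, and 8 of the 10 were among them. Flt3 and Zbtb46 fell below that filter and are described from their levels and from a fit without it. That fit tested more genes, and the shares of all genes given below come from fits with the filter. The calls of Flt3 and Zbtb46 were not repeated under any alternative. Several of the 8 reached the filter mainly through the group in which they were high, so their counts are read only against the share of all genes that moved.

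Whole tumours grown in mice from CT26, a colon carcinoma line, were sequenced in 4 groups of 5. The groups were mutant tumours given anti-PD-1, mutant tumours given PBS, vector tumours given anti-PD-1 and vector tumours given PBS. Mutant tumours came from CT26 cells labelled POLE-mutant and vector tumours from CT26 cells labelled control, while the series title names CHEK2 in place of POLE. The labels give neither the mutation, the number of cell clones, the antibody dose and schedule nor the age or sex of the mice.

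Conventional dendritic cells take up antigen in tissues and present it to T cells, and they fall into cDC1 and cDC2. cDC1 depend on the transcription factors IRF8 and BATF3, carry CLEC9A and XCR1, and present antigen from dying cells to CD8 T cells. Natural killer (NK) cells and activated CD8 T cells release XCL1, which draws cDC1 toward them, and a dendritic cell that has matured switches on CCR7 and leaves for the lymph node.

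FPKM summed to 328740 to 566913 per library, and the depth behind these values is unknown. Replicate 1 of vector anti-PD-1 and replicates 1 and 2 of mutant anti-PD-1 correlated least with the rest, at mean Spearman values of 0.873, 0.874 and 0.889. Titles name 11 libraries by M and a number and 9 by a number alone, with both styles in every group, and the style was a term in each test. Replicate numbers follow the order of deposition and only name a tumour. The labels do not say whether each tumour came from its own mouse beyond giving 5 per group, so p-values measure the spread between these samples. Pole averaged 3.94 ± 1.69 FPKM in mutant anti-PD-1, 5.22 ± 0.872 in mutant PBS, 7.51 ± 2.28 in vector anti-PD-1 and 8.62 ± 1.64 in vector PBS tumours (SD, n = 5 each), a level that does not check a mutation.

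All 10 genes had their highest group mean in mutant anti-PD-1 tumours. Each of the 8 tested genes passed the threshold as higher in mutant tumours given anti-PD-1 than in mutant tumours given PBS, in a limma fit of log2(FPKM + 1) with Benjamini-Hochberg adjusted p under 0.05. Over all genes tested, 30.5% passed and 15.9% passed as higher. The same 8 genes passed as higher in mutant than in vector tumours under anti-PD-1, where 32.9% of all genes passed and 17.8% passed as higher. Their log2 fold changes of 0.91 to 2.21 in the first comparison stand beside a median of -0.10 over all genes. For 7 genes the means ran mutant anti-PD-1, mutant PBS, vector anti-PD-1 and vector PBS from high to low, for Batf3 and Irf8 vector anti-PD-1 stood above mutant PBS, and Zbtb46 had an order of its own. Below the highest group, none of the 8 tested genes passed for anti-PD-1 against PBS in vector tumours, where 0% of all genes passed. Nor did any of the 8 pass for mutant against vector tumours under PBS, where 1.45% of all genes passed. In bulk tumours, fewer cells of a type and less RNA per cell cannot be told apart.

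**Figure D1:**
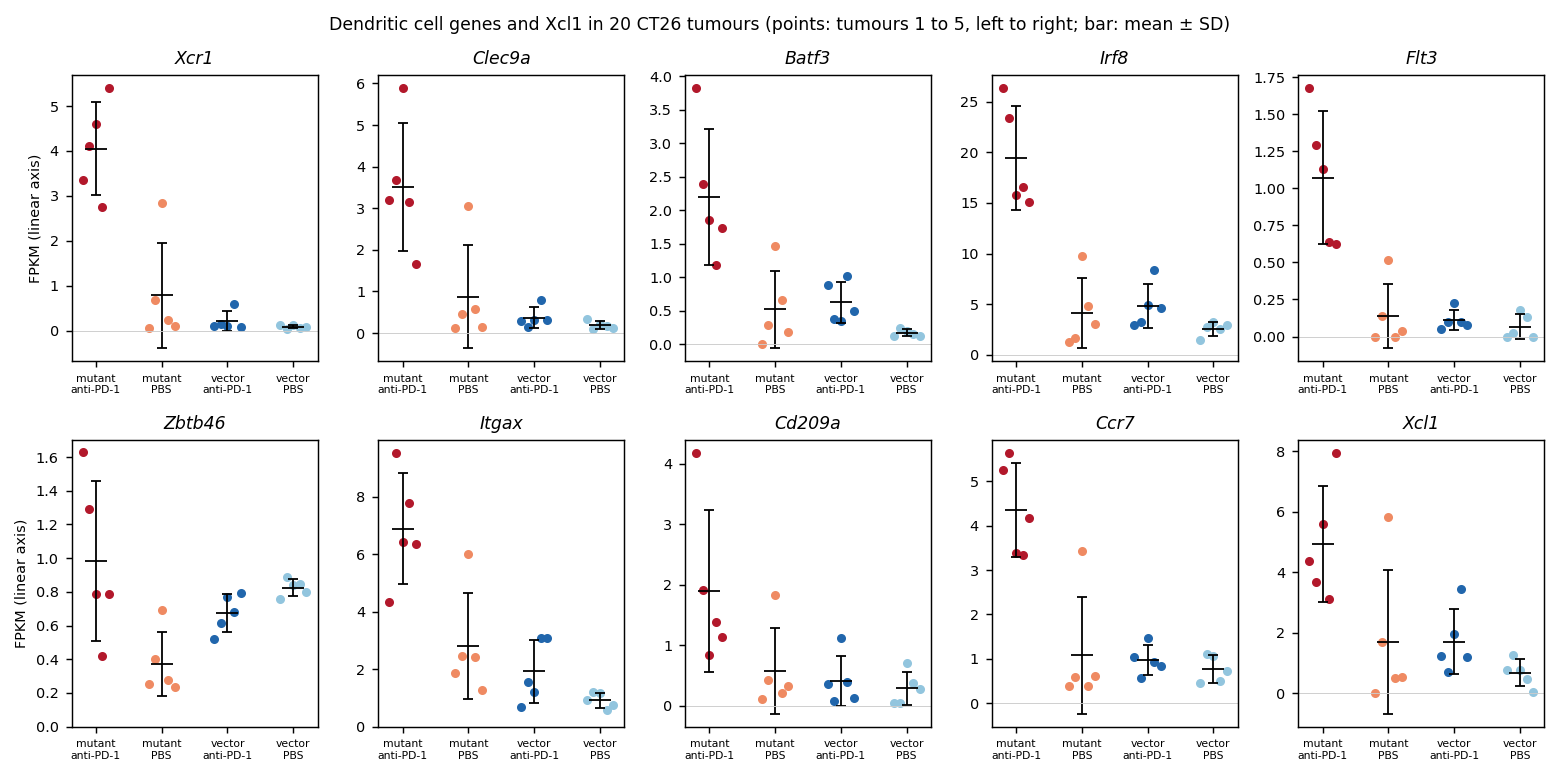
FPKM of each of the 10 genes (linear vertical axis) in mutant anti-PD-1, mutant PBS, vector anti-PD-1 and vector PBS tumours, with replicates 1 to 5 from left to right as points and the mean ± SD as bars. Mutant anti-PD-1 tumours hold the highest mean for every gene, and replicate 3 of mutant PBS stands above the other 4 of its group in every panel.

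Replicate 3 of mutant PBS was the highest of its group for all 10 genes. With it, the ranges of mutant anti-PD-1 and mutant PBS tumours were apart for Irf8 and Flt3, and the other 8 genes overlapped. Of all genes tested, 11.1% were higher without overlap in the full groups. Without that tumour, which was singled out after its values were seen, none of the 10 overlapped, and the share over all genes tested was 17.9%. Between mutant and vector tumours under anti-PD-1, 7 of the 10 genes did not overlap, all but Zbtb46, Cd209a and Xcl1, where 12.1% of tested genes were higher without overlap.

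Xcl1 (ENSMUSG00000026573), the chemokine, lies on the minus strand of chromosome 1 at 164931644 to 164935527 in mm10. It measured 4.38, 3.68, 5.6, 3.1 and 7.95 FPKM in mutant anti-PD-1 tumours, against 0, 1.68, 5.82, 0.511 and 0.519 in mutant PBS tumours. In vector tumours it measured 1.24, 0.683, 1.94, 3.46 and 1.2 FPKM with anti-PD-1, against 0.762, 1.27, 0.774, 0.476 and 0.0519 with PBS. Every mutant anti-PD-1 tumour was above 3 FPKM, a level reached elsewhere by replicate 3 of mutant PBS and replicate 4 of vector anti-PD-1. Xcl1 was higher with anti-PD-1 than with PBS in mutant tumours, at a log2 fold change of 1.49 ± 0.397 (SE, limma adjusted p = 0.00864). Between mutant and vector tumours under anti-PD-1 the log2 fold change was 1.22 and the limma adjusted p was 0.0248. That call was lost in 6 of 22 alternatives, with an adjusted p of up to 0.309. Leaving out replicate 2 of vector anti-PD-1 gave an adjusted p of 0.0596 and leaving out replicate 5 of mutant anti-PD-1 gave 0.0575. With the skeletal muscle score of each tumour as a term, the first comparison gave 1.11 (adjusted p = 0.0639) and the second 0.85 (adjusted p = 0.13). In the libraries with M in their titles the first gave 0.93 (adjusted p = 0.338).

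Xcr1 (ENSMUSG00000060509), the receptor for XCL1, is carried by cDC1 and lies on chromosome 9 at 123852315 to 123862029, minus strand. It measured 3.36, 4.12, 4.61, 2.76 and 5.41 FPKM in mutant anti-PD-1 tumours, against 0.0539, 0.68, 2.84, 0.248 and 0.119 in mutant PBS tumours. Replicate 3 of mutant PBS, at 2.84, lay just inside the range of the treated tumours and the other 4 were below 0.7. In vector tumours the values were 0.111, 0.163, 0.109, 0.602 and 0.0937 FPKM with anti-PD-1, against 0.141, 0.0536, 0.137, 0.0657 and 0.0809 with PBS. No vector tumour reached 1 FPKM. Xcr1 was 5.15-fold higher by group means in mutant anti-PD-1 than in mutant PBS tumours and 18.8-fold higher than in vector anti-PD-1 tumours. Without replicate 3 of mutant PBS the first ratio was 14.7, and without replicate 4 of vector anti-PD-1 the second was 34. Xcr1 reached 1 FPKM in the 5 mutant anti-PD-1 tumours and in 1 other, so it passed the filter through the group where it was high. On the log2(FPKM + 1) scale, which understates the change of low genes, these differences were 1.70 ± 0.258 (SE, limma adjusted p = 0.000109) and 2.09 (adjusted p = 1.66e-05). The second is the largest log2 fold change among the 8 genes in that comparison. In the libraries with M in their titles, which leave 2 mutant anti-PD-1 tumours, the first comparison gave 1.32 with an adjusted p of 0.0505.

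**Figure D2:**
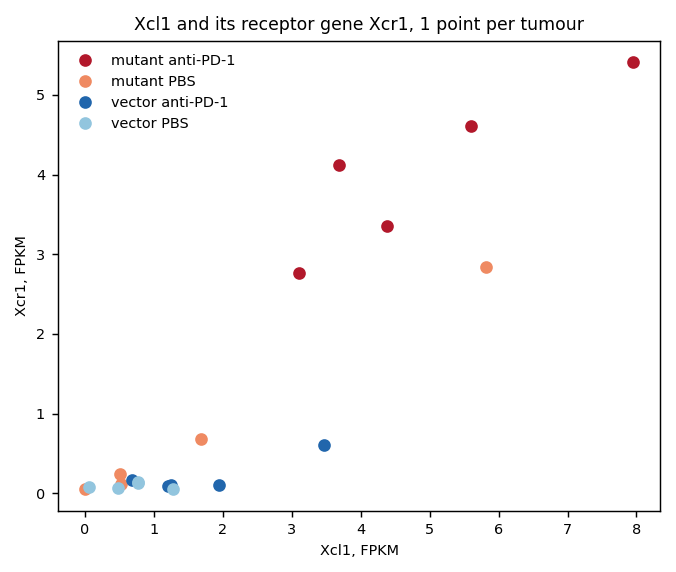
Xcr1 (vertical axis, FPKM) against Xcl1 (horizontal axis, FPKM), 1 point per tumour and 1 colour per group. The 5 mutant anti-PD-1 tumours and replicate 3 of mutant PBS have both genes above 2 FPKM, while replicate 4 of vector anti-PD-1 has Xcl1 at 3.46 and Xcr1 at 0.602.

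The level of the receptor gene per level of the ligand gene varied across groups. Xcr1 FPKM was 68.1% to 112% of Xcl1 FPKM in mutant anti-PD-1 tumours and 22.8% to 48.8% in the 4 mutant PBS tumours with Xcl1 above 0. In vector tumours it was 5.64% to 23.9% with anti-PD-1 and 4.23% to 156% with PBS, where the highest comes from the tumour with Xcl1 at 0.0519. The mutant anti-PD-1 range lies above those of mutant PBS and vector anti-PD-1 tumours. Both genes are near the lower limit of the data in most PBS tumours, and this ratio has no test. Set against Itgax, Xcr1 FPKM was 35.5% to 85% in mutant anti-PD-1, 2.91% to 47.3% in mutant PBS, 3.05% to 19.4% in vector anti-PD-1 and 4.5% to 15.5% in vector PBS tumours.

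Clec9a (ENSMUSG00000046080) encodes a receptor of cDC1 for exposed actin of dead cells and lies on chromosome 6 at 129408862 to 129424763, plus strand. It measured 3.2, 3.67, 5.9, 3.16 and 1.65 FPKM in mutant anti-PD-1 tumours, against 0.127, 0.457, 3.06, 0.589 and 0.142 in mutant PBS tumours. Vector tumours had 0.3, 0.142, 0.313, 0.805 and 0.315 FPKM with anti-PD-1, against 0.343, 0.0956, 0.208, 0.182 and 0.125 with PBS. The pattern followed that of Xcr1, with replicate 3 of mutant PBS inside the treated range and every vector tumour below 1 FPKM. Clec9a reached 1 FPKM in the 5 mutant anti-PD-1 tumours and in 1 mutant PBS tumour. It thus also passed the filter through the group where it was high. The log2 fold change was 1.42 ± 0.286 (SE) between anti-PD-1 and PBS in mutant tumours, with a limma adjusted p of 0.00123. Between mutant and vector tumours under anti-PD-1 it was 1.70, with an adjusted p of 0.000251. The first of these calls was lost in the libraries with M in their titles (adjusted p = 0.074).

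Batf3 (ENSMUSG00000026630) encodes a transcription factor that cDC1 need to develop, on chromosome 1 at 191097847 to 191108945, plus strand. In mutant tumours it measured 3.83, 2.39, 1.86, 1.18 and 1.73 FPKM with anti-PD-1, against 0, 0.288, 1.46, 0.666 and 0.191 with PBS. Vector tumours showed 0.881, 0.371, 0.356, 1.02 and 0.502 FPKM with anti-PD-1, against 0.128, 0.248, 0.206, 0.148 and 0.13 with PBS. Batf3 is the 1 gene of the 10 whose vector anti-PD-1 tumours all lay above all vector PBS tumours, which 0.279% of the tested genes did. That difference of 0.45 on the log2 scale had an unadjusted p of 0.042 and a limma adjusted p of 0.724, so it did not pass. In mutant tumours the log2 fold change for anti-PD-1 was 1.15 ± 0.209 (SE, adjusted p = 0.000557), and against vector tumours under anti-PD-1 it was 0.997 (adjusted p = 0.00155). Both calls held in all 21 alternatives in which the gene was tested. Batf3 reached 1 FPKM in the 5 mutant anti-PD-1 tumours, 1 mutant PBS tumour and 1 vector anti-PD-1 tumour. It passed the filter through the group where it was high.

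Irf8 (ENSMUSG00000041515) encodes the transcription factor that sets the cDC1 fate, which B cells, plasmacytoid dendritic cells and macrophages also use. The gene lies on chromosome 8 at 120736358 to 120756694, plus strand, and had the highest mean of the 10 in every group. It measured 26.4, 23.4, 15.8, 16.6 and 15.1 FPKM in mutant anti-PD-1 tumours, against 1.25, 1.66, 9.78, 4.86 and 3.06 in mutant PBS tumours. Vector tumours had 2.95, 3.24, 4.88, 8.36 and 4.63 FPKM with anti-PD-1, against 1.46, 2.79, 3.29, 2.54 and 2.92 with PBS. No tumour outside mutant anti-PD-1 reached 10 FPKM. The log2 fold change for anti-PD-1 in mutant tumours was 2.21 ± 0.347 (SE, limma adjusted p = 0.000147), the largest of the 8 genes in that comparison. Against vector tumours under anti-PD-1 it was 1.86 (adjusted p = 0.000604). Both calls held in all 22 alternatives.

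The bases before the starts of Irf8 and Xcr1 are shown because these genes had the largest differences in the 2 comparisons, and those of Itgax because they hold a motif described with them. All come from RefSeq on GRCm38.p6, hold the 250 bases before the annotated start and read 5′ to 3′ on the strand of the gene. Irf8 is chr8:120736108-120736357 on the plus strand, Xcr1 is chr9:123862030-123862279 on the minus strand, and neither overlaps an exon. Itgax is chr7:128129300-128129549 on the plus strand, and its last 3 bases lie in an exon in GENCODE. Capitals mark TGANTCA, the letters of the AP-1 element, to which BATF3 and JUN bind.
Irf8: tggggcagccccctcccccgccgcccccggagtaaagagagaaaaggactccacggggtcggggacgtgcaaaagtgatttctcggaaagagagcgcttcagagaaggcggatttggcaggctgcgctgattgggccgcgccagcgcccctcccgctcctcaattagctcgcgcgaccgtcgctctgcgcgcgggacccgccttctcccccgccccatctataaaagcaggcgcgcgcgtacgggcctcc
Xcr1: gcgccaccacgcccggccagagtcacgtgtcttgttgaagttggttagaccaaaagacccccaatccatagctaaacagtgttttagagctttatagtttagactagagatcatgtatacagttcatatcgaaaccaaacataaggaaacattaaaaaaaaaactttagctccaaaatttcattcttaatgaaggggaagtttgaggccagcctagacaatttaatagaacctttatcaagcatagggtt
Itgax: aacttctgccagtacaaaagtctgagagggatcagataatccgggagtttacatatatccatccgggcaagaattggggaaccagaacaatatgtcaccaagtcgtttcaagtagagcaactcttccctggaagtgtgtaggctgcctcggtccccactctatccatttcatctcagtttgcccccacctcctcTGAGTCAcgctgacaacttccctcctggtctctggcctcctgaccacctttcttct
Counted from 0 at the first transcribed base, the Itgax match lies at -56 to -50.

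The letters of 4 motifs were searched on both strands of windows from 250 bases before to 50 bases after each start, for the 9 genes with an entry. TGANTCA stands in 7.81% of 32851 windows of the same length and was found in Itgax and in Zbtb46, where it lies at -61 to -55. The Zbtb46 window, chromosome 2 at 181424339 to 181424638, lies inside the gene, whose 5′ end in GENCODE is 181459426. Its match is therefore not just before that end. The composite of an ETS and an IRF site (GGAA, 2 bases of any kind, GAAA) stands in 2.72% of windows and was found in Cd209a, on the opposite strand. A pair of IRF sites (GAAA, 2 bases of any kind, GAAA), held by 3.44% of windows, and GAGGAAGT, a PU.1 site held by 3.2%, were found in none of the 9 genes. No motif overlapped another in these windows. Xcr1, Clec9a, Batf3, Irf8, Flt3 and Xcl1 held none of the 4. The Batf3 window, chromosome 1 at 191098164 to 191098463, also lies inside its gene, whose 5′ end in GENCODE is 191097847. Irf8 had a further window inside the gene, chromosome 8 at 120738389 to 120738688. A match describes letters, not binding.

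Flt3 (ENSMUSG00000042817) encodes the receptor for FLT3 ligand, the growth factor of dendritic cell precursors, and lies on chromosome 5 at 147330741 to 147400489, minus strand. It measured 1.68, 1.29, 1.13, 0.639 and 0.622 FPKM in mutant anti-PD-1 tumours, against 0, 0.139, 0.514, 0 and 0.0398 in mutant PBS tumours. The vector tumours measured 0.0538, 0.0967, 0.229, 0.0979 and 0.0759 FPKM with anti-PD-1, against 0, 0.0232, 0.181, 0.131 and 0 with PBS. Every mutant anti-PD-1 tumour was above every other tumour. In the fit with no filter, the log2 fold change was 0.89 ± 0.125 (SE) between anti-PD-1 and PBS in mutant tumours, with a limma adjusted p of 0.000186. It was 0.91 between mutant and vector tumours under anti-PD-1, with an adjusted p of 0.000121.

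Zbtb46 (ENSMUSG00000027583) encodes a transcription factor that conventional dendritic cells share with endothelium, on chromosome 2 at 181387762 to 181459426, minus strand. It measured 1.63, 1.29, 0.788, 0.417 and 0.789 FPKM in mutant anti-PD-1 tumours, against 0.254, 0.399, 0.693, 0.276 and 0.232 in mutant PBS tumours. Vector tumours had 0.52, 0.614, 0.771, 0.68 and 0.792 FPKM with anti-PD-1, against 0.757, 0.887, 0.84, 0.845 and 0.797 with PBS. This order differs from that of the other 9 genes, since mutant PBS tumours had the lowest mean and all lay below all vector PBS tumours, as 5.74% of tested genes did. In the fit with no filter, Zbtb46 was 0.54 higher on the log2 scale with anti-PD-1 in mutant tumours (limma adjusted p = 0.0093). The difference between mutant and vector tumours did not pass under anti-PD-1 (0.24, adjusted p = 0.232) or PBS (-0.42, adjusted p = 0.223). Endothelial genes, a list of 10 drawn up after the data were seen, summed to 42.6 to 178 FPKM in mutant anti-PD-1, 34.1 to 48.6 in mutant PBS, 23.2 to 45.9 in vector anti-PD-1 and 25.2 to 47.5 in vector PBS tumours. Of 9 tested, 7 rose with anti-PD-1 in mutant tumours, beside 15.9% of all genes tested that rose. The 7 included Pecam1, an adhesion molecule of vessels, at 1.21 (limma adjusted p = 0.00787). The part of endothelial genes in the Zbtb46 level was not tested.

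Itgax (ENSMUSG00000030789) encodes CD11c, an integrin chain of dendritic cells that tumour macrophages also carry, and lies on chromosome 7 at 128129547 to 128150657, plus strand. In mutant tumours it measured 4.33, 9.54, 6.43, 7.79 and 6.37 FPKM with anti-PD-1, against 1.85, 2.46, 6, 2.44 and 1.27 with PBS. Values in vector tumours were 0.697, 1.55, 1.22, 3.1 and 3.07 FPKM with anti-PD-1, against 0.911, 1.19, 1.17, 0.58 and 0.751 with PBS. All mutant PBS tumours lay above all vector PBS tumours, as 3.3% of tested genes did. The log2 fold change for anti-PD-1 in mutant tumours was 1.16 ± 0.281 (SE, limma adjusted p = 0.00482), and between mutant and vector tumours under anti-PD-1 it was 1.51 (adjusted p = 0.000591). The first was lost in the libraries with M in their titles (adjusted p = 0.2). Under PBS the difference between mutant and vector tumours was 0.89 and did not pass (adjusted p = 0.154), though it passed in 3 of 22 alternatives.

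Cd209a (ENSMUSG00000031494) encodes a lectin of cDC2 and of dendritic cells derived from monocytes, on chromosome 8 at 3743397 to 3748984, minus strand. It measured 4.18, 1.91, 0.838, 1.38 and 1.14 FPKM in mutant anti-PD-1 tumours, against 0.104, 0.431, 1.83, 0.203 and 0.326 in mutant PBS tumours. Vector tumours had 0.363, 0.0807, 1.11, 0.389 and 0.124 FPKM with anti-PD-1, against 0.0448, 0.0475, 0.701, 0.368 and 0.281 with PBS. The highest value, in replicate 1 of mutant anti-PD-1, was more than 2 FPKM above all others. Cd209a reached 1 FPKM in 4 mutant anti-PD-1 tumours, 1 mutant PBS tumour and 1 vector anti-PD-1 tumour. It passed the filter mainly through the group where it was high. The log2 fold change for anti-PD-1 in mutant tumours was 0.91 ± 0.278 (SE), with a limma adjusted p of 0.02. Against vector tumours under anti-PD-1 it was 1.02, with an adjusted p of 0.00944. Without replicate 1 of mutant anti-PD-1 the first was 0.65 (adjusted p = 0.0977), and without replicate 1 of mutant PBS it was 0.78 (adjusted p = 0.0559). With replicate 1 of vector anti-PD-1 and replicates 1 and 2 of mutant anti-PD-1 left out, both calls were lost, at 0.51 (adjusted p = 0.274) and 0.62 (adjusted p = 0.189). Cd209f, a neighbour of Cd209a in the same gene family, reached 12.1 FPKM in that replicate 1 and 0.0256 to 2.54 in the other mutant anti-PD-1 tumours, and did not pass (0.997, adjusted p = 0.133). How reads shared within this family were counted is not given in the sources used here.

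Ccr7 (ENSMUSG00000037944) encodes the receptor that leads mature dendritic cells and naive T cells to lymph nodes, on chromosome 11 at 99144196 to 99155077, minus strand. It measured 5.25, 5.64, 3.38, 3.34 and 4.18 FPKM in mutant anti-PD-1 tumours, against 0.39, 0.584, 3.43, 0.391 and 0.624 in mutant PBS tumours. Vector tumours held 1.05, 0.571, 1.48, 0.92 and 0.849 FPKM with anti-PD-1, against 0.451, 1.11, 1.06, 0.495 and 0.734 with PBS. Apart from replicate 3 of mutant PBS, no tumour outside mutant anti-PD-1 reached 2 FPKM. The log2 fold change for anti-PD-1 was 1.56 ± 0.249 in mutant tumours (SE, limma adjusted p = 0.000173), against 0.16 in vector tumours (adjusted p = 0.81). Between mutant and vector tumours under anti-PD-1 it was 1.48 (adjusted p = 0.000248).

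**Figure D3:**
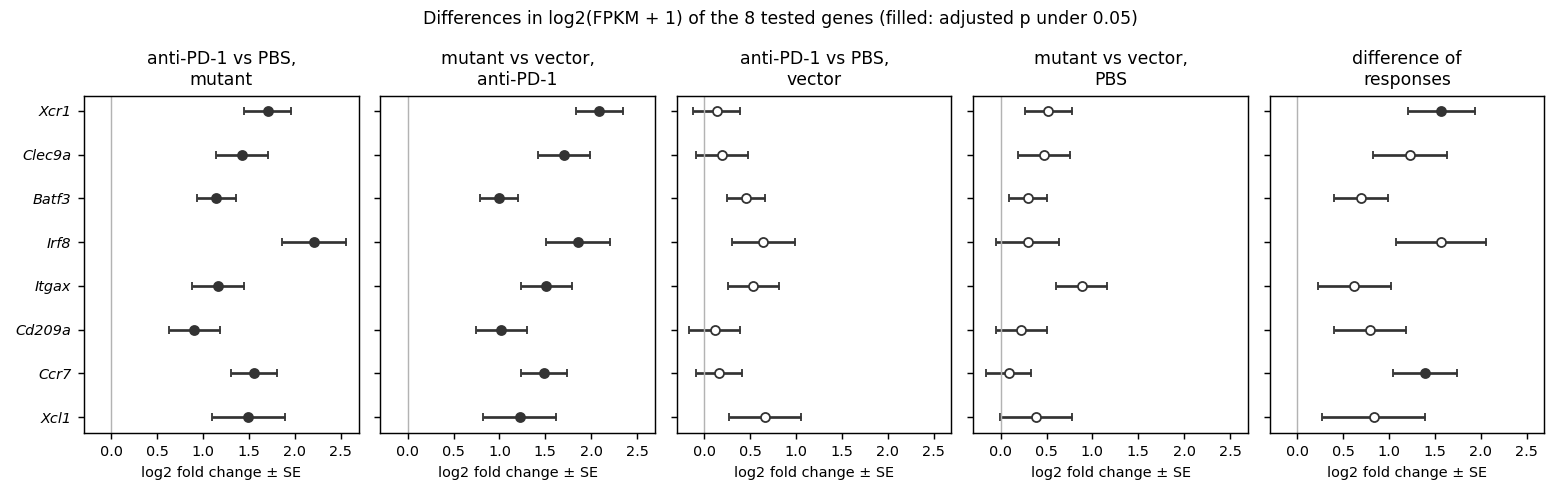
Difference in log2(FPKM + 1) with its SE for the 8 tested genes (rows) in 5 comparisons (panels), where filled points have a limma adjusted p under 0.05. All 8 are filled in the 2 leftmost panels, none in the next 2, and Xcr1 and Ccr7 in the last.

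In vector tumours, none of the 8 genes passed the threshold for anti-PD-1 against PBS, and neither did any other gene, so 0% of genes passed by limma. At an unadjusted p under 0.05 the comparison held 426 genes, or 3.05%, with Batf3 the 1 of the 8 among them. Fold changes on the log2 scale ran from 0.12 for Cd209a to 0.66 for Xcl1, all 8 above 0, with limma adjusted p of 0.724 to 0.878. Replicate 4 of vector anti-PD-1 was the highest of its group for 6 of the 10 genes.

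Between mutant and vector tumours given PBS, none of the 8 passed either, where 1.45% of all genes did. At an unadjusted p under 0.05, 11% of all genes passed, and Itgax was the 1 gene of the 8 that did. Log2 fold changes ran from 0.09 for Ccr7 to 0.89 for Itgax. Without replicate 3 of mutant PBS, that for Irf8 became -0.05, that for Ccr7 -0.22 and that for Xcl1 -0.03.

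Whether anti-PD-1 moved a gene more in mutant than in vector tumours was tested as the difference of the responses. Xcr1 passed, at 1.57 ± 0.364 (SE, limma adjusted p = 0.0131), and so did Ccr7, at 1.40 ± 0.35 (adjusted p = 0.0197). Over all genes, 9.35% passed and 7.4% passed as higher. Irf8 (1.57, adjusted p = 0.051) and Clec9a (1.23, adjusted p = 0.0609) did not pass, nor did Batf3, Itgax, Cd209a and Xcl1, with adjusted p of 0.139 to 0.359. In the fit with no filter, Flt3 passed at 0.83 (adjusted p = 0.0184) and Zbtb46 did not, at 0.67 (adjusted p = 0.0556). Leaving out replicate 3 of mutant PBS, singled out after its values were seen, brought Irf8 (1.88, adjusted p = 0.00427), Clec9a (1.53, adjusted p = 0.00185) and Batf3 (0.85, adjusted p = 0.0376) past the threshold. Over all genes, 1308 passed in the full fit and 688 to 2247 on leaving out each library in turn. In the libraries with M in their titles none of the 8 passed, Xcr1 missed the threshold with 0.1 in place of 1 added to each value (adjusted p = 0.059), and Ccr7 did so without the 3 libraries that correlated least (adjusted p = 0.0998).

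Ptprc encodes CD45, which all leukocytes carry. It measured 30.5, 17.9, 12.5, 18.5 and 16.3 FPKM in mutant anti-PD-1 tumours, against 1.96, 3.95, 11, 3.87 and 2.94 in mutant PBS tumours. The vector groups measured 0.0274, 2.92, 5.12, 6.23 and 3.46 FPKM with anti-PD-1, against 2.3, 2.34, 3.18, 3.27 and 2.44 with PBS. All 6 genes of a leukocyte panel that includes Ptprc, chosen after the data were seen, rose with anti-PD-1 in mutant tumours. Their median was 1.81, and 15.9% of all genes tested rose. Replicate 1 of vector anti-PD-1 was near 0 for Ptprc, while that panel summed there to 209 FPKM within a group range of 173 to 255. Ptprc was 1.93 higher on the log2 scale with anti-PD-1 in mutant tumours (limma adjusted p = 0.00284) and 2.35 higher in mutant than vector tumours under anti-PD-1 (adjusted p = 0.000543).

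**Figure D4:**
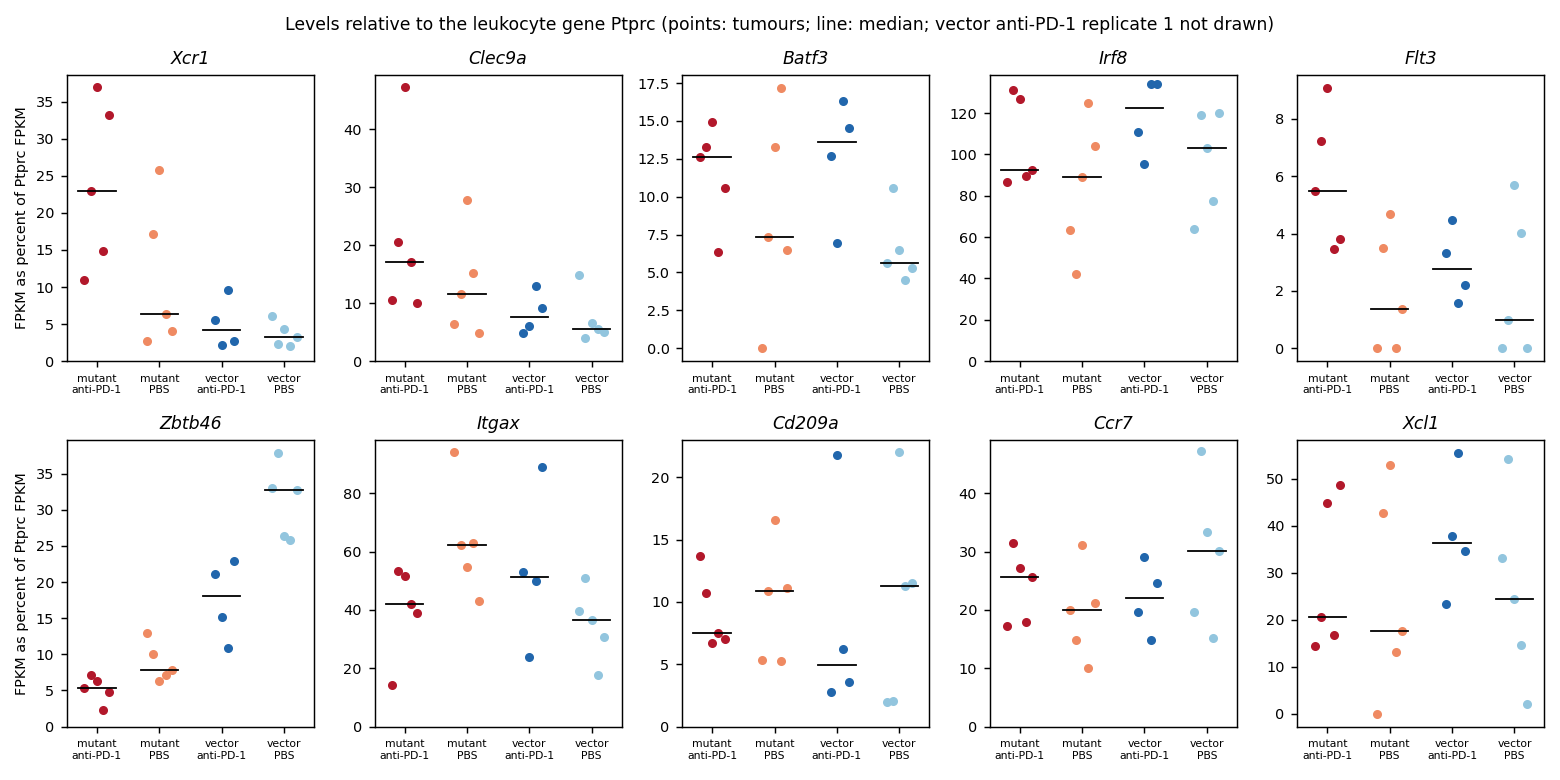
FPKM of each of the 10 genes as a percent of Ptprc FPKM in the same tumour, with points for tumours and a line at the median of those drawn. Replicate 1 of vector anti-PD-1 is not drawn because its Ptprc of 0.0274 puts its ratios far above the axes. Xcr1 reaches 11% to 36.9% in mutant anti-PD-1 tumours, against 2.75% to 25.8% in mutant PBS tumours, while Zbtb46 reaches 2.26% to 7.2% in mutant anti-PD-1 tumours, against 25.8% to 37.9% in vector PBS tumours.

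Set against Ptprc, the genes differed among themselves, here with medians over all 5 tumours of each group. Xcr1 had a median of 23% of Ptprc FPKM in mutant anti-PD-1 tumours, against 6.41% in mutant PBS, 5.59% in vector anti-PD-1 and 3.32% in vector PBS tumours. Irf8 had medians of 92.6% in mutant anti-PD-1, 89% in mutant PBS, 134% in vector anti-PD-1 and 103% in vector PBS tumours. Zbtb46 had 5.35% in mutant anti-PD-1, 7.87% in mutant PBS, 21.1% in vector anti-PD-1 and 32.7% in vector PBS tumours. The ranges of mutant anti-PD-1 and mutant PBS tumours overlapped for all 3 genes, and these ratios have no test.

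The limma fit was repeated on log2(FPKM + 1) minus that of Ptprc. The same Ptprc value enters every gene of a tumour, so the genes share its error and these p-values may be too small. For anti-PD-1 against PBS in mutant tumours, Cd209a was the 1 gene of 8 that passed, as lower (-1.03, adjusted p = 0.0303), a call lost in 7 of 22 alternatives, 5 of them with 1 tumour left out (adjusted p up to 0.082), where 90.6% of all genes passed and 90.3% passed as lower. The other 7 lay between -0.79 for Batf3 and 0.28 for Irf8. For mutant against vector tumours under anti-PD-1, Batf3 (-1.35, adjusted p = 0.00547), Cd209a (-1.33, adjusted p = 0.00518) and Xcl1 (-1.13, adjusted p = 0.0165) passed as lower, where 94.4% of all genes passed and 94.2% passed as lower. Without replicate 1 of vector anti-PD-1, whose Ptprc was near 0, these differences were -0.87 for Batf3, -0.90 for Cd209a and -0.75 for Xcl1 (adjusted p of 0.00724 to 0.0432). The Xcl1 call was lost without replicate 1 of mutant anti-PD-1 (-0.84, adjusted p = 0.0853) or replicate 2 (-1.002, adjusted p = 0.0533), and in 6 of 23 alternatives in all. Adding 1 to low values holds these differences down. With 0.1 added instead, none of the 8 passed in either comparison, and Xcr1 stood at 1.04 (adjusted p = 0.252) and 0.93 (adjusted p = 0.292), the first of them for anti-PD-1 against PBS in mutant tumours. In that comparison Xcr1, Clec9a, Batf3, Ccr7 and Xcl1 were below 0 with 1 added and above 0 with 0.1 added, so the sign of these 5 rests on that choice.

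Other genes of these cells were taken from lists that include the members, so the counts are not independent of them. These lists, too, were chosen with earlier results of these data known. In mutant tumours, 13 of 18 cDC1 genes rose with anti-PD-1 and none fell, with a median log2 fold change of 1.05, beside 15.9% of all genes tested that rose. Among them were Wdfy4, which cross-presentation needs, at 1.42 (limma adjusted p = 5.81e-05), Tlr11 at 1.35 (adjusted p = 3.89e-05) and Btla at 1.23 (adjusted p = 7.59e-05). Of 12 tested cDC2 genes, 6 rose and 2 fell, with a median of 0.72. The cDC2 factor Irf4 rose by 1.16 (adjusted p = 0.000135) and the lectin gene Clec10a by 1.89 (adjusted p = 0.00287), while the fallers were Mgl2 (-1.10, adjusted p = 0.00332) and Klf4 (-1.01, adjusted p = 0.044).

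All 5 tested genes of conventional dendritic cells in general rose, beside 15.9% of all genes tested that rose. Ciita, the regulator of class II antigen presentation genes, led them at 2.46 (limma adjusted p = 4.61e-05). The others were Spi1, Dpp4, Kit and Itgax, while Flt3 and Zbtb46 of that list were below the filter. The part of other cell types in these 5 genes was not tested. Of 15 tested genes of mature migratory dendritic cells, 9 rose and 1 fell, with a median of 1.14. Pdcd1lg2, which encodes the PD-1 ligand PD-L2, rose by 2.57 (adjusted p = 1.1e-05), Cd40 by 1.38 (adjusted p = 5.03e-05) and the costimulator Cd86 by 1.17 (adjusted p = 0.000119), while Cd80 fell by 0.61 (adjusted p = 0.00333). Ccl17 (0.68, adjusted p = 0.05) and Fscn1 (0.21, adjusted p = 0.648) did not pass. Neither did Relb (-0.05, adjusted p = 0.857), Socs2 (-0.06, adjusted p = 0.827) and Cacnb3 (-0.19, adjusted p = 0.245). Of 7 tested plasmacytoid genes, 3 rose and 1 fell, with the nucleic acid sensor Tlr9 at 2.43 (adjusted p = 2.94e-05) and Cox6a2, also a gene of striated muscle, at -1.07 (adjusted p = 0.0326).

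**Figure D5:**
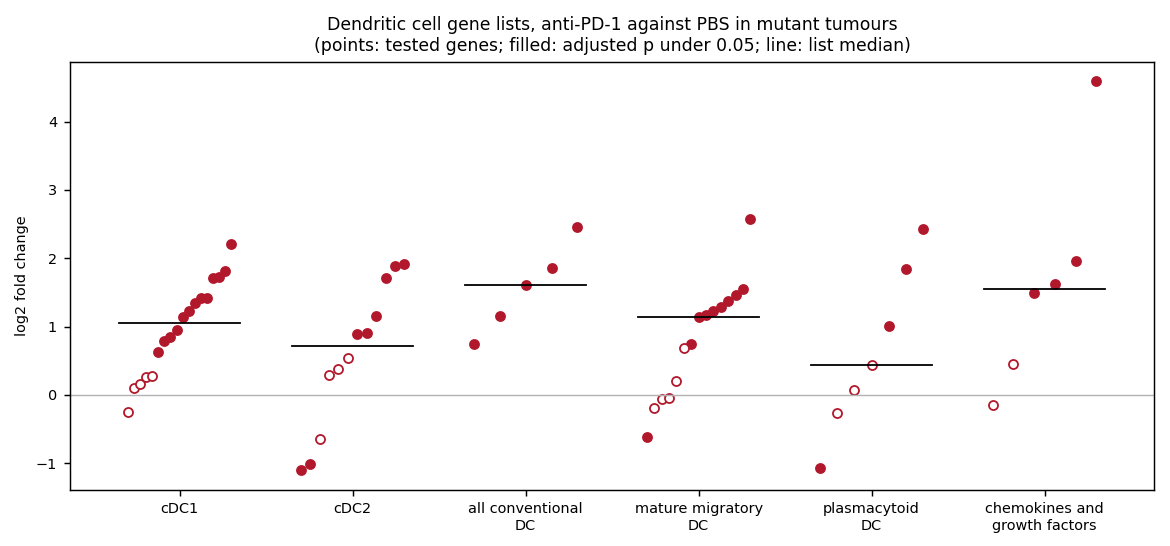
Log2 fold change for anti-PD-1 against PBS in mutant tumours (vertical axis) of each tested gene in 6 lists (horizontal axis), with filled points for a limma adjusted p under 0.05 and a line at the list median. Medians run from 0.43 for plasmacytoid genes to 1.61 for genes of all conventional dendritic cells, and the highest point is Ccl5 at 4.59.

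Among chemokines and growth factors that act on dendritic cells, 4 of 6 tested genes rose with anti-PD-1 in mutant tumours, Xcl1 included. Of all genes tested, 15.9% rose in that comparison. Ccl5, a chemokine of activated T and NK cells that also draws cDC1, had 144, 101, 64.1, 73.1 and 42.7 FPKM in mutant anti-PD-1 tumours, against 1.2, 1.71, 21.7, 1.4 and 1.3 in mutant PBS tumours. Vector tumours had 1.88 to 6.79 FPKM with anti-PD-1 and 0.886 to 3.65 with PBS. Ccl5 rose by 4.59 ± 0.435 (SE, limma adjusted p = 4.82e-06), and its difference of responses was 4.04 (adjusted p = 0.00236). Flt3l, the ligand of FLT3, was named after its values were seen. It did not pass for anti-PD-1 in mutant tumours (0.45, adjusted p = 0.0541), and it was higher in mutant than in vector tumours under anti-PD-1 (0.81, adjusted p = 0.00161).

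Under anti-PD-1, mutant tumours were higher than vector tumours for 13 of 18 cDC1, 8 of 12 cDC2, 5 of 5 general, 10 of 15 mature and 3 of 7 plasmacytoid genes, and lower for 2 cDC2 genes, beside 17.8% higher over all genes tested. In vector tumours no gene of these lists passed for anti-PD-1, with list medians of 0.04 to 0.32 beside -0.08 over all genes. Between the PBS groups only Cox6a2 of these lists passed (2.52, limma adjusted p = 0.0013). The difference of responses was positive and passed for 7 of 18 cDC1 genes, with Tlr11 at 1.28 (adjusted p = 0.00636), for 2 of 12 cDC2 genes, for 3 of 5 general genes and for 6 of 15 mature genes, beside 7.4% over all genes. In the plasmacytoid list 1 of 7 passed as higher and Cox6a2 as lower (-1.93, adjusted p = 0.0262).

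Markers of the cells that make XCL1 or share the other members moved in the same comparison. In mutant tumours given anti-PD-1 against PBS, 8 of 8 tested NK genes and 9 of 10 tested T cell genes rose. Their medians were 2 and 2.52, and 15.9% of all genes tested rose there. The killer cell gene Nkg7 rose by 3.76 (limma adjusted p = 1.2e-05) and Cd8b1, a chain of CD8, by 3.20 (adjusted p = 5.94e-06). NK genes summed to 106 to 156 FPKM in mutant anti-PD-1, 3.1 to 56.6 in mutant PBS, 8.78 to 35.8 in vector anti-PD-1 and 3.94 to 19.2 in vector PBS tumours. T cell genes summed to 104 to 147 FPKM in mutant anti-PD-1, 10.3 to 67.8 in mutant PBS, 5.03 to 19.9 in vector anti-PD-1 and 6.12 to 21.8 in vector PBS tumours. The highest mutant PBS sum was that of replicate 3 in both lists. Their part in the Xcl1 and Ccr7 levels was not tested.

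Macrophage and monocyte genes, from cells that share Itgax and Irf8, rose with anti-PD-1 in mutant tumours in 12 of 14 cases. Their median was 1.99, with Adgre1, which encodes F4/80, at 2.82 (limma adjusted p = 2.07e-05). For this and the next 2 lists, 15.9% of all genes tested rose. Macrophage and monocyte genes summed to 3518 to 8860 FPKM in mutant anti-PD-1, 966 to 2326 in mutant PBS, 970 to 2470 in vector anti-PD-1 and 1404 to 2008 in vector PBS tumours. Both tested B cell genes rose, with Cd79b at 1.37 (adjusted p = 0.000489), and 6 of the 8 B cell genes were below the filter. B cell sums were 1.7 to 8.27 FPKM in mutant anti-PD-1, 0.548 to 2.2 in mutant PBS, 0.754 to 2.17 in vector anti-PD-1 and 0.527 to 2.44 in vector PBS tumours. Of 6 tested neutrophil genes 2 rose, with Csf3r at 2.42 (adjusted p = 0.000156). Neutrophil genes summed to 27.7 to 618 FPKM in mutant anti-PD-1, 41.3 to 80.9 in mutant PBS, 37.9 to 89.4 in vector anti-PD-1 and 22.8 to 128 in vector PBS tumours. Ly6g was listed at 0 in all vector PBS tumours and Camp in all mutant PBS and vector anti-PD-1 tumours. What these cells added to the Itgax, Irf8 and Ccr7 levels was not tested.

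Marker genes of skeletal muscle, lymph node and carcinoma cells were also summed in the same tumour libraries. Skeletal muscle genes summed to 164 to 2122 FPKM in mutant anti-PD-1, 46.7 to 1447 in mutant PBS, 45.4 to 709 in vector anti-PD-1 and 47.7 to 57.7 in vector PBS tumours, and replicate 3 of mutant PBS held that 1447. Of 18 tested, Mb passed for anti-PD-1 in mutant tumours (2.34, limma adjusted p = 0.0188), where 30.5% of all genes passed. With muscle as a term in the fit, the log2 fold changes in that comparison were 0.62 ± 0.277 for Cd209a (SE, adjusted p = 0.128) and 1.11 ± 0.405 for Xcl1 (SE, adjusted p = 0.0639), each with an SE within 0.01 of that without the term. The calls held for the other 6 genes, at 0.995 to 2.01 with the term. Lymph node genes summed to 4.87 to 34.7 FPKM in mutant anti-PD-1, 0.00945 to 8.17 in mutant PBS, 0.161 to 0.767 in vector anti-PD-1 and 0.0424 to 0.182 in vector PBS tumours. Nearly all of the first range was Cxcl13, the 1 tested gene of the list (3.13, adjusted p = 6.57e-05), a B cell chemokine that exhausted T cells also make. Cxcl13 was listed at 0 in all 5 vector PBS tumours, and Glycam1 and Madcam1, genes of lymph node vessels, in all 5 vector anti-PD-1 tumours. Epithelial genes of the carcinoma summed to 1.34 to 7.74 FPKM in mutant anti-PD-1, 7.17 to 15.9 in mutant PBS, 11.6 to 26.7 in vector anti-PD-1 and 11 to 21.1 in vector PBS tumours, and Krt18 fell by 1.34 (adjusted p = 0.00664). The part of lymph node and carcinoma RNA in the members' levels was not tested.

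The genes most like Xcr1 over the 20 tumours, by Spearman correlation of FPKM, were Gpr18 (0.926), Gm13710 (0.919), Klrk1 (0.917), Parp9 (0.913) and Cd247 (0.911). Over the 15 tumours without mutant anti-PD-1 these correlations were 0.807 to 0.846. Klrk1 encodes the killer cell receptor NKG2D and Cd247 the zeta chain of the T cell receptor, neither a dendritic cell marker. Those most like Xcl1 were Klri2 (0.922), Clec4b1 (0.914), Ctsw (0.913), Prkcq (0.911) and Gm35154 (0.91), at 0.854 to 0.882 over the 15. Klri2 is a receptor gene of NK cells, Ctsw a protease gene of cytotoxic lymphocytes and Prkcq a kinase gene of T cell receptor signalling. Clec4b1, at 0.914 above Ctsw and Prkcq, was not assigned to a cell type here, nor was Gm35154. The tumours share libraries and the difference between groups, so these values only describe likeness.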

How the data were processed

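Messenger levels were measured by RNA sequencing of whole tumours, per the labels from total RNA extracted with Trizol. The deposited values were read as FPKM, because Cuffnorm is named in the submitters' processing notes and the values are fractional. FastQC, STAR 2.5 and mm10 also stand there, with no role or order. The annotation was not given in the sources used here, nor was the strand setting. Depth is unknown. At the best step 20.8% to 28.9% of low values came out as whole reads within 5%, so no read counts were recovered. In 1 file, 10 extra columns were empty.

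Symbols and coordinates came from GENCODE vM21 (mm10), which matched 55154 of 55335 identifiers. Values as log2(FPKM + 1) of 13982 genes in all 20 libraries went into limma 3.58.1 (R 4.3.3, trend on), with 4 group means and a term for identifier style (M and a number in 11 titles, a number alone in 9). p-values were adjusted by Benjamini-Hochberg over all genes, threshold 0.05. The fit was checked on simulated data. Alternatives changed the pseudocount, filter, trend, scaling, weights, covariates and libraries.

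The members and lists were chosen with earlier results of these data known. Named genes are the members, Ptprc, Pole, up to 3 other genes of each list with the smallest p, and the 5 most like Xcr1 and Xcl1. Genes outside that rule are Cd80, Klf4, Mgl2, Cox6a2, Flt3l, Kit, Ccl17, Fscn1, Relb, Socs2 and Cacnb3, named after their values were seen. Siglech, Ly6g, Camp, Glycam1, Madcam1, Ccl19 and Ccl21a also stand outside that rule, because they were not tested. Sums over a list are of FPKM. Figures were drawn with matplotlib 3.10.9.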

Additional observations from a re-analysis of the deposited data

Results flagged for a closer look

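Chance alone meets Dixon's criterion in about 1 in 20 independent sets of normally distributed values. The 40 sets of 5 tumours here (10 genes in 4 groups) reuse the same 20 tumours, so that rate cannot be set beside their count. Of the 40 sets, 10 held a tumour far from the other 4 by this criterion. In replicate 3 of mutant PBS these were Xcr1 at 2.84, Clec9a at 3.06, Flt3 at 0.514, Itgax at 6, Cd209a at 1.83, Ccr7 at 3.43 and Xcl1 at 5.82 FPKM. That tumour also held the highest sums of NK, T cell and skeletal muscle genes in its group, and the part of these in its levels was not tested. In vector anti-PD-1, replicate 4 stood apart for Xcr1 at 0.602 and Clec9a at 0.805 FPKM, and replicate 3 for Flt3 at 0.229 FPKM.

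The difference of the anti-PD-1 responses, mutant minus vector, was 1.57 for Xcr1 and 1.395 for Ccr7 on the log2 scale, with limma adjusted p of 0.0131 and 0.0197. Xcr1 passed the filter on low values through the mutant anti-PD-1 tumours. Its call was lost with 0.1 in place of 1 added to each value (adjusted p = 0.059) and in the libraries with M in their titles (M-style, 1.12, adjusted p = 0.258). The call of Ccr7 was lost without the 3 least correlated libraries (adjusted p = 0.0998) and in M-style libraries alone (1.6, adjusted p = 0.111).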

How the results depend on the processing

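No paired analysis was possible because the labels give no replicate numbers. Against the count of 8 members past the threshold, anti-PD-1 in mutant tumours gave 7 to 8 when each library was left out in turn, 3 in M-style libraries alone and 4 with at least 1 FPKM in 10 libraries, a filter that leaves 4 members tested. Mutant against vector tumours under anti-PD-1 gave 7 to 8 and, with that filter, 4. The vector response gave 0 members in all 22 alternatives, and 0 to 5 of all genes. Between PBS groups 1 member (Itgax) passed with sample weights, with only the groups compared and without the 3 least correlated libraries, and all genes past the threshold numbered 203, with a range of 12 (M-style) to 2710 (sample weights). The difference of responses, 2 members, gave 1 with pseudocount 0.1, with the 10-library filter and without the 3 libraries, 4 with sample weights, 0 in M-style libraries and 2 to 5 on leaving out each library. The 1308 genes past it ranged from 387 to 3214. Anti-PD-1 in mutant tumours gave 2601 to 6460 genes for 4271, lowest with the muscle term, and mutant against vector under anti-PD-1 2343 for 4601 in the 2 groups alone. Relative to Ptprc, the count of 1 in mutant tumours became 0 with pseudocount 0.1, the 10-library filter or M-style libraries. It became 2 in number-only libraries and without the 3 libraries. With no filter it was 3, as with the leukocyte panel, which includes Ptprc and was chosen after seeing the data. Sample weights gave 4, and leaving out each library gave 0 to 1. The count of 3 for mutant against vector became 0 (pseudocount 0.1), 1 (10-library filter, M-style), 5 (no filter, no style term), 6 (sample weights) and 2 to 5. With no filter, 34088 and 34702 genes passed relative to Ptprc, from more genes tested. Sample weights reversed Xcr1 (0.60, adjusted p = 0.000588) and Itgax (0.28, adjusted p = 0.0411) relative to Ptprc in mutant against vector tumours, and the cause was not tested. Depth is unknown, so levels near 0 carry an error that could not be given.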

Other observations

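Ligands of CCR7 were chosen for a look after their values were seen. Ccl19 was listed at 0 in every mutant PBS, vector anti-PD-1 and vector PBS tumour and measured 0.847, 0.712, 0.319, 0.109 and 0.295 FPKM in mutant anti-PD-1 tumours. Ccl21a was at most 0.21 FPKM in mutant anti-PD-1 tumours and was highest, at 2.58, in replicate 3 of mutant PBS. Neither reached the filter, so neither has a test. Siglech, a marker of plasmacytoid dendritic cells, measured 0.437 to 2.78 FPKM in mutant anti-PD-1 tumours, against 0.0397 to 0.605 in mutant PBS, 0.177 to 0.477 in vector anti-PD-1 and 0.107 to 0.445 in vector PBS tumours, and was below the filter as well.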
